A study of Arabidopsis thaliana with 36 samples.

Results

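Transcripts were counted by RNA sequencing in roots of CASP1::shy2-2/slr-1 seedlings of Arabidopsis thaliana after 16 h on the synthetic auxin 1-naphthaleneacetic acid (NAA) and without it. The comparison rests on the 6 libraries whose titles name this genotype with 16 h of 10 µM NAA (3 libraries) or as control (3 libraries), out of 36 libraries in the series, and on all genes of the count tables. Every group carries slr-1, a stabilising allele of the auxin repressor gene IAA14 in the Col-0 background. CASP1::shy2-2/slr-1 carries in addition shy2-2, a stabilised form of the repressor IAA3 (also called SHY2), driven by the promoter of CASP1, which is active in differentiated endodermal cells, so cell types without that promoter are not targeted by the transgene. The labels do not say whether the line is 1 clone of transformants. The slr-1 groups, used below where the genotypes are compared, carry slr-1 alone, 3 libraries untreated and 3 after 16 h of 10 µM NAA. Seedlings were grown for 6 days, moved at staggered times so that all were 7 days old at harvest, and sampled without the shoot and without about 3 mm of root tip. Replicates are 3 libraries per group, and nothing states that they came from separate sets of plants. The p-values therefore cover only the spread between libraries of a group, estimated over all 36 libraries together.

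Auxin acts by bringing Aux/IAA proteins to TIR1/AFB receptors for destruction, which frees ARF transcription factors at auxin-responsive genes. Aux/IAA and GH3 genes are among the quickest targets, and both form negative feedback: the first restore repression, and the second conjugate auxin to amino acids. The endodermis surrounds the stele and seals it with the Casparian strip, a lignin band held in place by CASP proteins, and later with suberin, a polyester coat. Lateral roots start in the pericycle beneath it, and the endodermis above them has to give way for a primordium to form. The series asks how differentiated endodermal cells respond to auxin, and the transgene sets a repressor in those cells.

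After 16 h of NAA, the largest rises in CASP1::shy2-2/slr-1, leaving out genes whose mean log2 CPM was under 1, included LBD29, MAKR4 and WOX11 of root formation and GH3.3, IAA19 and GH3.5 of auxin feedback. Casparian strip genes, xylem and secondary wall genes, most SWEET sugar transporters and many aquaporins were lower. IAA3 transcript was lower too, while it was higher in slr-1. Genes of suberin gave a mixed picture, with most members uncalled, and several of them differed from slr-1 in how they answered NAA. Of 20939 genes tested, 3308 (15.8%) rose and 2917 (13.9%) fell at an adjusted p under 0.05 (29.7% in all). With a change of at least 2-fold these were 689 (3.29%) and 1022 (4.88%).

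The 250 bases before the gene start are shown for 5 genes on which the account turns: GH3.3 and IAA19, auxin feedback genes with large rises, LBD29, with the largest rise at that level, and LBD18 and IAA3, whose answer to NAA differed from that in slr-1. They are read 5′ to 3′ on the gene's strand from the TAIR10.1 reference genome (NCBI), and capitals mark TGTCTC or TGTCGG, variants of the auxin response element bound by ARF factors, searched on both strands. The windows are chr2:9866563-9866812 (minus strand) for GH3.3, chr3:5263751-5264000 (plus) for IAA19, chr3:21549573-21549822 (minus) for LBD29, chr2:18718098-18718347 (plus) for LBD18 and chr1:1129690-1129939 (minus) for IAA3.
GH3.3: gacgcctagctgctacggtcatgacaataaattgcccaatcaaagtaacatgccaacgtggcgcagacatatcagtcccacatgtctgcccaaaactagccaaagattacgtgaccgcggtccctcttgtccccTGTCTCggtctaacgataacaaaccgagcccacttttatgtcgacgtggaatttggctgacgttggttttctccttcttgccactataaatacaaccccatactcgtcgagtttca
IAA19: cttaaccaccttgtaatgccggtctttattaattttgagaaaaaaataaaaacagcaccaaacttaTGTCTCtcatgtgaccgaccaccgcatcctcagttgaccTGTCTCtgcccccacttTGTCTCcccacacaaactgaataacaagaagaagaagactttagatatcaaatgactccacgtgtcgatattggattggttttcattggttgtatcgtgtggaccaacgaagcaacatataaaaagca
LBD29: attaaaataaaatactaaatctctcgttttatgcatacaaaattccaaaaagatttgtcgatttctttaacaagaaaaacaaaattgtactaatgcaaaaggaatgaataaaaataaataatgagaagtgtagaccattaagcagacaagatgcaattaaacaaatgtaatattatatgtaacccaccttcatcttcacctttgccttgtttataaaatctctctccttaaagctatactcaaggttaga
LBD18: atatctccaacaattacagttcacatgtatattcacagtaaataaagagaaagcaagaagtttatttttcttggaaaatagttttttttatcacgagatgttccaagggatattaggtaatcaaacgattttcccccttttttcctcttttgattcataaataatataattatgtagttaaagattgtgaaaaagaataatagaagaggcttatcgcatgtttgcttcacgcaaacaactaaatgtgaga
IAA3: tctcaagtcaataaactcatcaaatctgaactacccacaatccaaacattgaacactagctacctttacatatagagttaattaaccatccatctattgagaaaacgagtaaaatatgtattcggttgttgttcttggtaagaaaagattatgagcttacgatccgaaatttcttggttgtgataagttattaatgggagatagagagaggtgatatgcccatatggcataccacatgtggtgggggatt
The GH3.3 window holds 1 TGTCTC, whose first base lies 116 bases before the gene start. The IAA19 window holds 3, at 184, 145 and 128 bases before it. Neither motif is written in the windows of LBD29, LBD18 and IAA3, which says only that these letters are not in these 250 bases. Over the 27443 protein-coding genes, windows of this length hold TGTCTC in 10.9% and TGTCGG in 4.16%, and either one in 14.7%. Of the 15 largest rises 3 hold either motif and of the 15 largest falls 2.

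The 6 libraries held 34.5 to 48.5 M reads in genes (28.1 to 49 M over the series). Values below are CPM, reads per 1000000 after TMM scaling of the library size. Replicate 3 of the 16 h group stood apart from its group. It lay at 33.8 on the first principal component of the 6 libraries (62.8% of the variance), against 61.6 and 58.2 for replicates 1 and 2 and -49.9 to -53.1 for the controls, and at -57.1 on the second (16.8%) against 26.7 and 16.8. Its log2 CPM correlated with those of the other 16 h libraries at 0.9738 and 0.9781, and theirs with each other at 0.9912. Among the 6225 called genes it was the 16 h library nearest to the control mean in 3862 (62%). It is also the only library of the 6 whose code ends in n, a mark the labels do not explain. Outside these 6, replicate 3 of the slr-1 16 h group and 8 h replicates 1 and 2 of CASP1::shy2-2/slr-1 carry it too. The step from 8 to 16 h is therefore unbalanced in this mark. Without it 4003 genes rose and 3866 fell, of which 3079 rises and 2560 falls were called with it as well. Counts of list members are therefore given with and without it. Leaving out 16 h replicate 1 instead left 2132 rises and 1939 falls.

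**Figure D1:**
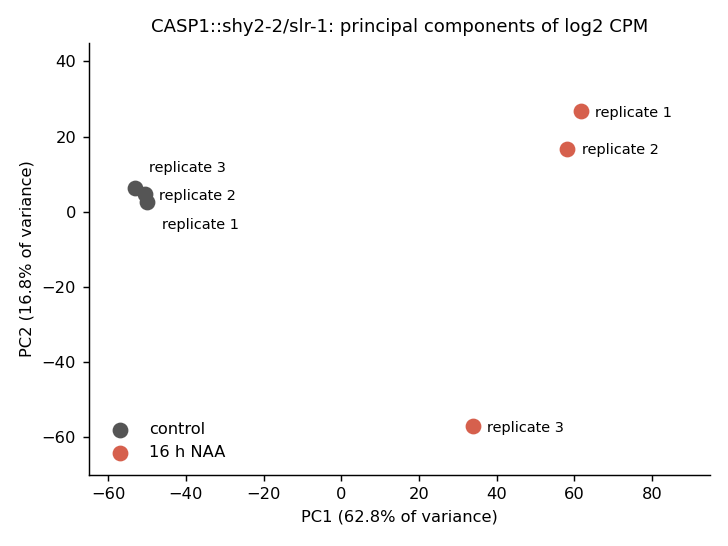
Scores of the 6 CASP1::shy2-2/slr-1 libraries on the first (x axis, 62.8% of variance) and second (y axis, 16.8%) principal components of log2 CPM, with one point per library. The 3 controls lie together at the left, 16 h replicates 1 and 2 at the right, and 16 h replicate 3 alone at the bottom.

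Marker lists were summed to see which tissues the RNA came from. The 9 Casparian strip genes summed to 407 to 548 CPM in the controls and 251 to 270 CPM at 16 h. EXO70A1, which changed little, was part of the 16 h sum, so the sum does not measure the endodermis. A larger part came from list members not named here. CASP1, CASP2, CASP4, ESB1 and PER64 were low at 16 h (values below). They still had reads in all 6 libraries, so some RNA of the endodermis was present. The 10 xylem markers summed to 810 to 1010 CPM in the controls and to 274 to 418 CPM at 16 h. The 4 pericycle and stele markers summed to 707 to 778 CPM in the controls and to 907 to 1050 CPM at 16 h. Most of that sum, and its rise, came from PHO1 alone. Of the 4 markers 1 rose and 1 fell, against 15.8% and 13.9% of all genes. Their median change was 0.01 on the log2 scale. The 8 phloem markers stood at 365 to 529 CPM in the controls and at 343 to 413 CPM at 16 h. The 10 root hair markers summed to 8.03 to 16.2 CPM in the controls and to 1.82 to 5.49 CPM at 16 h. The 8 root tip and cap markers were near absent from the controls, at 0.123 to 1.4 CPM, in sections cut without the tip, and summed to 5.56 to 11.7 CPM at 16 h. The 2 cortex markers summed to 0.0613 to 1.07 CPM and to 1.96 to 3.83 CPM, too little to check that tissue. The 9 shoot and photosynthesis markers lay at 138 to 211 CPM in the controls and at 97.4, 107 and 214 CPM at 16 h, with replicate 3 highest. No marker of these lists was at 0 in all 6 libraries. In such whole root sections, fewer cells of a type and less RNA per cell cannot be told apart, and the part of these sums in the results below was not tested.

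**Figure D2:**
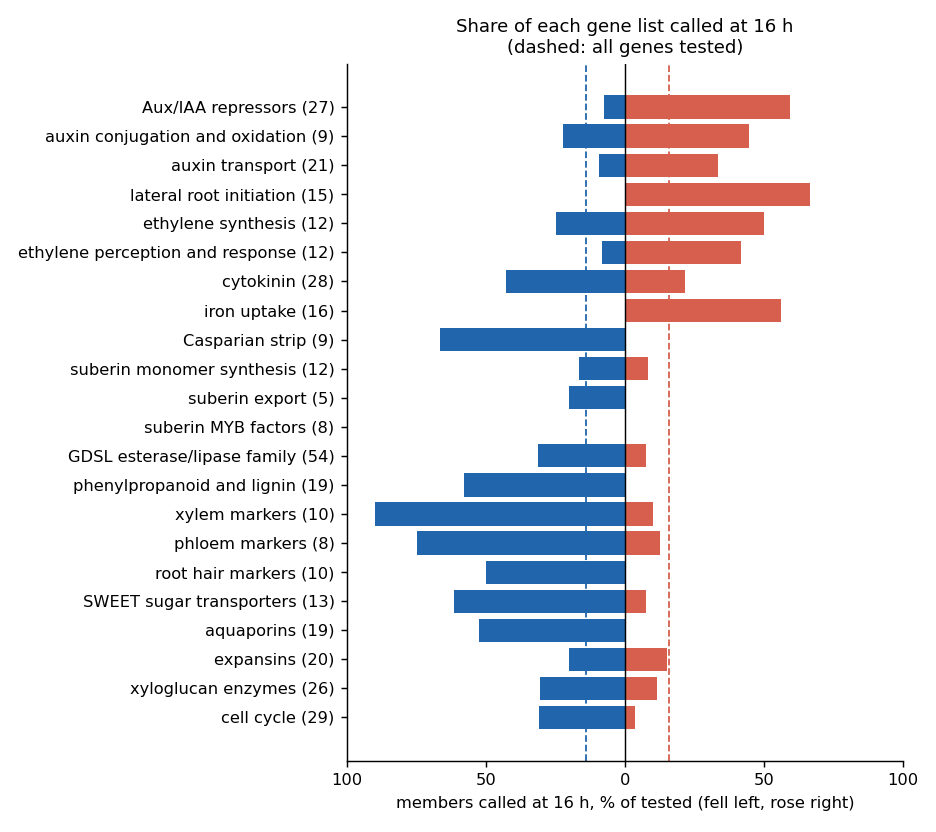
Percent of the tested members of each gene list (number in brackets) that rose (right, red) or fell (left, blue) at 16 h of NAA against the controls, at an adjusted p under 0.05. The dashed lines mark the share of all genes tested, 15.8% for rises and 13.9% for falls.

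The genes that define the line came first. IAA3 (AT1G04240, chromosome 1, 1128149 to 1129689) stood at 38.6, 53.3 and 42.6 CPM in the controls and at 24, 21.9 and 22.9 CPM at 16 h. All 3 treated libraries lay below all 3 controls, and IAA3 fell by 0.97 ± 0.13 on the log2 scale (value ± SE from the fit; adjusted p = 1.82e-06). In slr-1 it went the other way, from 42.4, 38.4 and 39.3 CPM to 82.8, 78.1 and 86.7 CPM. The difference between the genotypes' responses was -2.01 ± 0.18 (adjusted p = 1.3e-08). Reads of the shy2-2 transgene and of the native gene are counted together. IAA14 (AT4G14550, chromosome 4, 8347822 to 8350263), the gene mutated in slr-1, stood at 5.99, 8.6 and 5.67 CPM in the controls and at 10.2, 7.6 and 7.25 CPM at 16 h, with overlapping groups (0.30 ± 0.28, adjusted p = 0.442). Its response was lower than in slr-1 by -1.3 ± 0.40 (adjusted p = 0.0376). CASP1 (AT2G36100, chromosome 2, 15159591 to 15160799), whose promoter drives the transgene, stood at 40.9, 74.9 and 44 CPM in the controls and at 8.99, 3.36 and 2.76 CPM at 16 h. It fell by 3.4 ± 0.67 (adjusted p = 0.000448), and the difference from slr-1 in this response was 0.57 ± 0.94 (adjusted p = 0.752). None of these counts shows either stabilising mutation. IAA3 and CASP1 each overlap an annotated gene on the opposite strand, and whether counting used strand is not given in the sources used here; the same holds for many genes named below, among them ESB1, PER64, LAC17, XCP1, GAUT12, IRX1, IRX3, IRX5, FAR4, FAR1, ASFT, IAA5, IAA9, FER1 and AT1G14160.

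Without NAA the genotypes were already unlike. Of the genes tested 2572 (12.3%) were higher and 2651 (12.7%) lower in untreated CASP1::shy2-2/slr-1 than in untreated slr-1. GH3.3 stood at 143, 197 and 152 CPM in its controls against 35, 38 and 81.3 CPM in slr-1, a difference of 1.67 ± 0.22 (adjusted p = 5.2e-06). LBD29 stood at 0.173, 0.654 and 0.331 CPM against 4.84, 5.49 and 7.96 CPM, a difference of -3.92 ± 0.33 (adjusted p = 3.23e-09). A response therefore starts from unequal levels in many genes.

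Genes of auxin conjugation were among the highest rises. GH3.3, which conjugates auxin to amino acids, reached 1670, 2620 and 2360 CPM at 16 h from the control levels above. It rose by 3.76 ± 0.24 (adjusted p = 5.68e-12), about 13.5-fold, with no overlap. GH3.5, of the same enzyme family, stood at 18.1, 14 and 13.8 CPM in the controls and at 107, 139 and 138 CPM at 16 h (3.07 ± 0.17, adjusted p = 4.19e-13). GH3.2 went from 165, 218 and 171 CPM to 635, 976 and 1050 CPM (2.26 ± 0.17, adjusted p = 1.11e-10). Each of the 3 had its treated libraries far above its controls, with replicate 1 lowest at 16 h. In the list of auxin conjugation and oxidation 4 of 9 tested members rose and 2 fell, with or without replicate 3, against 15.8% and 13.9% of all genes. One of the falls was AT1G14120, annotated as an oxygenase of the family that oxidises auxin, which stood at 330, 303 and 375 CPM in the controls and at 159 to 166 CPM at 16 h (-1.05 ± 0.13, adjusted p = 1.11e-06). Its name is not given by the reference used here.

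Of the Aux/IAA repressor genes, 16 of 27 tested members rose and 2 fell (15 and 3 without replicate 3), 2 more members being left out for low counts. Of all genes tested 15.8% rose and 13.9% fell. The list's median change was 0.47 on the log2 scale, and that of all genes -0.00. IAA19 stood at 3.58, 2.14 and 3.28 CPM in the controls and at 29.9, 26.7 and 30.8 CPM at 16 h (3.29 ± 0.20, adjusted p = 1.51e-12). IAA29 went from 1.5, 1.14 and 1.22 CPM to 12.4, 7.07 and 15.8 CPM (3.19 ± 0.24, adjusted p = 1.88e-10). IAA5 went from 0.617, 0.511 and 0.738 CPM to 5.54, 5.38 and 4.66 CPM (3.07 ± 0.26, adjusted p = 8.56e-10). These were large changes from low levels. IAA9 rose at a higher level, from 344, 342 and 306 CPM to 692, 719 and 736 CPM (1.11 ± 0.08, adjusted p = 2.3e-11). IAA3 was one of the 2 falls, so the repressor whose stabilised form the line carries moved against most of its family. Of the auxin receptors, TIR1, which binds auxin together with Aux/IAA proteins, stood at 68.8, 65.5 and 69.4 CPM in the controls and at 62.3, 56.2 and 67.9 CPM at 16 h (-0.13 ± 0.09, adjusted p = 0.301). Among the 6 receptor genes 1 call was made, for AFB1, and it was lost without control replicate 2 or 16 h replicate 1.

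Of 14 ARF transcription factor genes 3 rose (21.4%) and 1 fell (7.14%), against 15.8% and 13.9% of all genes. Without replicate 3 these were 3 and 2. The activator ARF19 went from 29.1, 28.6 and 30.3 CPM to 44.2, 51 and 43.7 CPM (0.66 ± 0.12, adjusted p = 0.000205), and ARF10 and ARF4 rose by 0.54 ± 0.10 and 0.66 ± 0.14. Auxin transport gave 7 rises (33.3%) and 2 falls (9.52%) among 21 tested members, and 7 and 3 without replicate 3. PIN3, a plasma membrane carrier that moves auxin out of cells, rose by 1.18 ± 0.16 (adjusted p = 5.03e-06). PIN5, a carrier of the endoplasmic reticulum, fell from 13.8, 22.9 and 20 CPM to 4.14, 2.67 and 1.82 CPM (-2.71 ± 0.40, adjusted p = 1.29e-05), and PILS5, of a family that also holds auxin inside the cell, fell by 1.18 ± 0.23 (adjusted p = 0.000376). PILS5 was at 234, 264 and 463 CPM at 16 h, with replicate 3 nearest the controls. In auxin synthesis 3 of 10 tested members rose (30%) and 1 fell (10%), and 4 and 1 without replicate 3. Without control replicate 2 or 16 h replicate 1 only 1 rose. The fall was that of YUC8, which makes auxin from indole-3-pyruvate, from 23.7, 31.3 and 27.3 CPM to 8, 7.36 and 10.2 CPM (-1.69 ± 0.24, adjusted p = 7.83e-06).

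**Figure D3:**
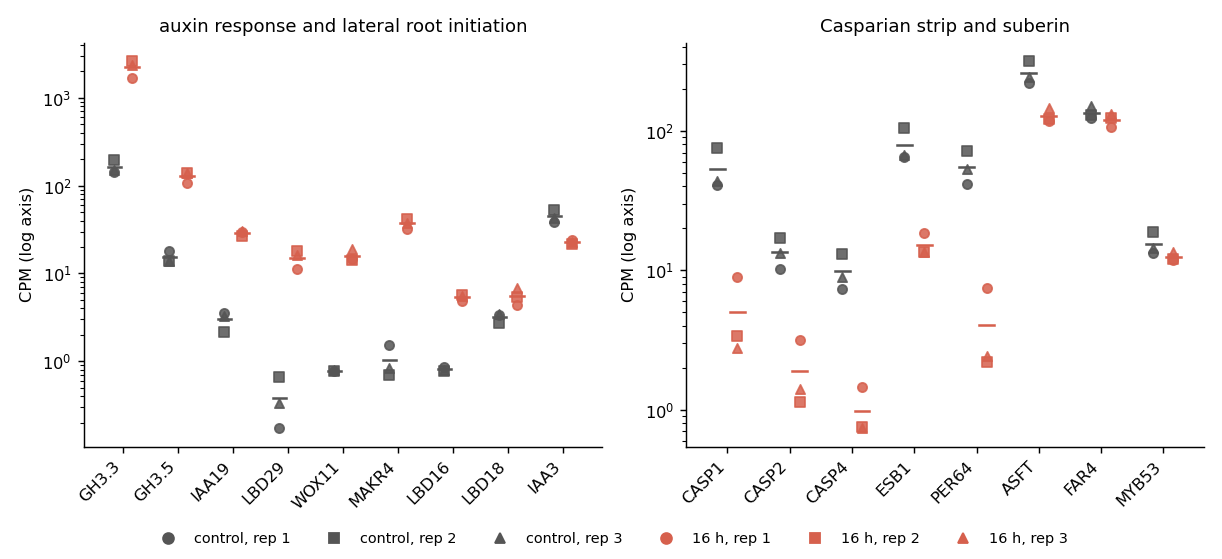
Normalised read counts (CPM, log axis) of auxin response and lateral root genes (left) and of Casparian strip and suberin genes (right) in each CASP1::shy2-2/slr-1 library, grey for controls and red for 16 h of NAA, with a horizontal bar at the group mean. GH3.3 rises from 143 to 197 CPM in the controls to 1670 to 2620 CPM, CASP1 falls to 2.76 to 8.99 CPM, and the groups of FAR4 overlap.

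Genes of lateral root initiation were the list with the highest median among the auxin lists. Of its 15 members 10 rose and 0 fell (11 and 0 without replicate 3), with a median of 2.51. Over all genes tested 15.8% rose and 13.9% fell. LBD29, a LOB-domain transcription factor downstream of ARF7 and ARF19, reached 11.3, 18.1 and 16 CPM from the control levels above (5.23 ± 0.33, adjusted p = 4.17e-12). MAKR4, a membrane-associated regulator of lateral root founder cells, stood at 1.53, 0.694 and 0.839 CPM in the controls and at 31.7, 41.9 and 37.5 CPM at 16 h (5.19 ± 0.36, adjusted p = 2.2e-11). WOX11, a homeobox factor of founder cells of adventitious roots, went from 0.765, 0.776 and 0.788 CPM to 14.5, 14.4 and 19 CPM (4.36 ± 0.21, adjusted p = 7.32e-14). In all 3 genes the treated libraries lay far above the controls. LBD16, a partner of LBD29, rose from 0.863, 0.776 and 0.788 CPM to 4.79, 5.74 and 5.46 CPM (2.72 ± 0.18, adjusted p = 1.36e-11). LBD18, of the same family, rose less, from 3.4, 2.76 and 3.43 CPM to 4.36, 5.36 and 6.77 CPM (0.78 ± 0.15, adjusted p = 0.000263). PUCHI, a factor of primordium boundaries, had only a few reads in the controls (0.0247, 0 and 0.0509 CPM), so its fold is not given, and stood at 1.98, 1.42 and 2.53 CPM at 16 h (adjusted p = 2.28e-09). WOX5, a factor of the root stem cell niche held in the root tip list, stood at 0, 0.0613 and 0 CPM in the controls and at 0.626, 0.511 and 0.739 CPM at 16 h (adjusted p = 3.13e-05). Of that list 6 of 7 tested members rose (5 without replicate 3), but only 1 without control replicate 2 and 2 without 16 h replicate 1, and all of them stayed at a few CPM or less.

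Of 9 genes of cell separation, which loosens tissue over a primordium, 0 rose and 2 fell (1 and 2 without replicate 3), the falls being 22.2% of the list against 13.9% of all genes. AT5G14650, annotated as a pectin lyase-like protein, fell from 31.5, 12.8 and 47.5 CPM to 6.34, 4.98 and 3.64 CPM (-2.61 ± 0.58, adjusted p = 0.00133). The peptide gene IDA, which triggers cell separation, was the other fall at very low levels, from 0.197, 0.204 and 0.331 CPM to 0.0241, 0.0667 and 0.0569 CPM (adjusted p = 0.00267), a few reads per library, so that no fold is given. HSL2, a receptor of that peptide, stood at 15.9, 14.1 and 19.7 CPM in the controls and at 17.5, 19.1 and 13.9 CPM at 16 h (adjusted p = 0.93).

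Other large rises were of varied annotation. AT1G60010, named a D-ribose-binding periplasmic protein by the reference, went from 5.11, 4.64 and 4.91 CPM to 35.8, 41.5 and 39.4 CPM (2.99 ± 0.19, adjusted p = 4.44e-12). AT5G52050, a MATE efflux family protein, rose by 3.29 ± 0.45 and AT2G23060, an acyltransferase, by 3.2 ± 0.34 (adjusted p = 4.73e-06 and 8.99e-08). AT1G52700, annotated as an alpha/beta-hydrolase, shows how far replicate 3 can lie from its group: it stood at 6.34, 4.09 and 5.65 CPM in the controls and at 71.7, 62.1 and 8.82 CPM at 16 h (3.16 ± 0.67, adjusted p = 0.000918). Replicate 3 of the slr-1 16 h group did the same, at 9.41 CPM against 60.9 and 45.6 CPM. EARLI1, a lipid-transfer-type protein, stood at 72.7, 29.8 and 47.3 CPM and at 553, 558 and 223 CPM (3.16 ± 0.39, adjusted p = 1e-06).

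Casparian strip genes were lower at 16 h. Of 9 members 6 fell and 0 rose (7 and 0 without replicate 3), with a median of -3.06. Over all genes tested 13.9% fell and 15.8% rose. CASP2 went from 10.2, 17.2 and 13.4 CPM to 3.16, 1.13 and 1.42 CPM (-2.83 ± 0.65, adjusted p = 0.00175), and CASP4 from 7.4, 13.1 and 9.03 CPM to 1.47, 0.756 and 0.739 CPM (-3.31 ± 0.73, adjusted p = 0.00134). ESB1, a dirigent protein that places the lignin of the strip, stood at 65.1, 105 and 67.1 CPM in the controls and at 18.6, 13.6 and 13.6 CPM at 16 h (-2.38 ± 0.31, adjusted p = 1.79e-06). PER64, the peroxidase of strip lignification, stood at 41.7, 71.7 and 52.9 CPM and at 7.49, 2.22 and 2.42 CPM (-3.77 ± 0.62, adjusted p = 5.29e-05). In each of these genes control replicate 2 was the highest control and 16 h replicate 1 the highest treated library, and the groups did not overlap, which was so for 36.8% of all genes tested. The 3 dirigent-like genes AT3G55230, AT3G24020 and AT2G39430, among the 15 largest falls, followed the same order and fell by 3.78 ± 0.72, 3.74 ± 0.81 and 3.48 ± 0.87. EXO70A1, an exocyst subunit that positions the CASP domain, stood at 100, 99.6 and 98.5 CPM and at 81.7, 86.7 and 97.2 CPM (-0.17 ± 0.07, adjusted p = 0.0574). In slr-1 8 of the 9 members fell, as did 22.5% of all genes, and 0 members passed the test of a genotype difference at 16 h, in which 9.44% of all genes passed.

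Regulators of endodermal fate formed a list of their own. Of 7 genes of endodermal identity and barrier surveillance 1 rose and 1 fell, 14.3% each way and close to the shares of all genes (15.8% and 13.9%). Without replicate 3 these were 1 and 2. SHR, a GRAS factor that moves from the stele to specify the endodermis, fell from 23.1, 19.6 and 19.3 CPM to 15.9, 13.4 and 14.8 CPM (-0.49 ± 0.09, adjusted p = 0.000111). SCR, its partner in the endodermis, stood at 20.2, 27 and 21.9 CPM and at 23.4, 20.4 and 20 CPM (adjusted p = 0.478). MYB36, which switches on the Casparian strip genes, stood at 7.08, 6.62 and 6.41 CPM in the controls and at 7.78, 5.96 and 11.3 CPM at 16 h (0.31 ± 0.32, adjusted p = 0.485), so its groups overlapped.

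In suberin monomer synthesis 1 of 12 members rose (8.33%) and 2 fell (16.7%), against 15.8% and 13.9% of all genes, with a median of 0.09. Without replicate 3 these were 2 and 3. CYP86A1, the fatty acid hydroxylase of root suberin, rose from 167, 209 and 190 CPM to 386, 404 and 352 CPM (1.01 ± 0.25, adjusted p = 0.00396). ASFT, which adds ferulate to the polymer, fell from 219, 317 and 245 CPM to 118, 121 and 145 CPM (-1.02 ± 0.19, adjusted p = 0.000277). FAR1, a reductase that makes fatty alcohols of suberin, fell from 118, 62.6 and 116 CPM to 42.5, 42.8 and 38.2 CPM (-1.26 ± 0.18, adjusted p = 7.31e-06). So members of 1 pathway moved in both directions. FAR4, another such reductase, stood at 124, 131 and 151 CPM and at 106, 123 and 132 CPM (-0.17 ± 0.11, adjusted p = 0.248). Of 5 ABCG exporters 1 fell, ABCG16, from 8.56, 9.4 and 14 CPM to 1.95, 1.73 and 3.01 CPM (-2.27 ± 0.35, adjusted p = 2.62e-05), while ABCG6 stood at 90.2, 115 and 121 CPM and at 76, 85.1 and 141 CPM (adjusted p = 0.791). Of 8 MYB factors that activate suberin synthesis 0 rose and 0 fell by edgeR (0 and 1 without replicate 3). MYB93 stood at 33.7, 57.1 and 37.6 CPM and at 49.1, 48.5 and 53.9 CPM (adjusted p = 0.379). The GDSL esterase/lipase family, which holds enzymes that build and break down suberin, had 54 of its 101 members tested, of which 4 rose and 17 fell with or without replicate 3, and 2 rose without 16 h replicate 1 or control replicate 3. AT1G28660, of that family, fell from 31.8, 32.3 and 32.9 CPM to 15.5, 19.1 and 17.5 CPM (-0.90 ± 0.11, adjusted p = 5.88e-07).

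Whether these responses were those of slr-1 was tested as a genotype difference at 16 h. The response was more positive in CASP1::shy2-2/slr-1 for 946 genes (4.52%) and more negative for 1030 (4.92%). In slr-1 itself 4693 genes (22.4%) rose and 4705 (22.5%) fell, 44.9% in all. The first of these counts depends on single libraries: it was 490 without slr-1 control replicate 1, 496 without CASP1::shy2-2/slr-1 16 h replicate 3 and 1669 without slr-1 control replicate 3. The second was 544 without slr-1 control replicate 1 and 594 without CASP1::shy2-2/slr-1 control replicate 3. With 16 h replicate 3 of both genotypes left out the counts were 588 and 661.

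In slr-1 12 of the 15 lateral root genes rose and 0 fell, against 22.4% and 22.5% of all genes. The list's median was 2.31 in slr-1 and 2.51 here. Of the 15 genes 5 had a more positive response than in slr-1 (33.3% against 4.52% of all genes) and 1 a more negative one (6.67% against 4.92%). The latter was LBD18, which in slr-1 went from 3.22, 3.62 and 3.63 CPM to 39, 39.6 and 35.5 CPM. The difference in response was -2.67 ± 0.21 (adjusted p = 1.51e-09), and its control levels differed by -0.13 (adjusted p = 0.56). LBD29 went the other way in fold, with a difference of 2.55 ± 0.42 (adjusted p = 0.000195), but its level at 16 h was lower than the 35.3, 40.4 and 42 CPM of slr-1, and its controls were lower as well. MAKR4 also had lower controls here, and its difference was 2.73 ± 0.45 (adjusted p = 0.000205). In slr-1 it stood at 7.2, 6.8 and 6.34 CPM untreated. Its level there at 16 h, 34.1, 36.9 and 41.5 CPM, was close to the 31.7 to 41.9 CPM here. WOX11 stood at 13.1, 15.3 and 20.9 CPM in slr-1 at 16 h, and its response gave no call (0.55 ± 0.29, adjusted p = 0.244). IAA19 had a difference of -0.03 ± 0.27 and GH3.3 of -0.72 ± 0.31 (adjusted p = 0.967 and 0.138). GH3.2 started higher here and rose less, by -1.52 ± 0.23 (adjusted p = 7.67e-05), from 32.7, 34.5 and 38.7 CPM to 413, 435 and 606 CPM in slr-1. IAA16 rose here by 0.47 ± 0.13 and fell in slr-1 by 0.64 ± 0.13, a difference of 1.11 ± 0.19 (adjusted p = 0.000264). YUC8 fell here and rose in slr-1 by 0.74 ± 0.24 (difference -2.44 ± 0.34, adjusted p = 2.94e-05).

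**Figure D4:**
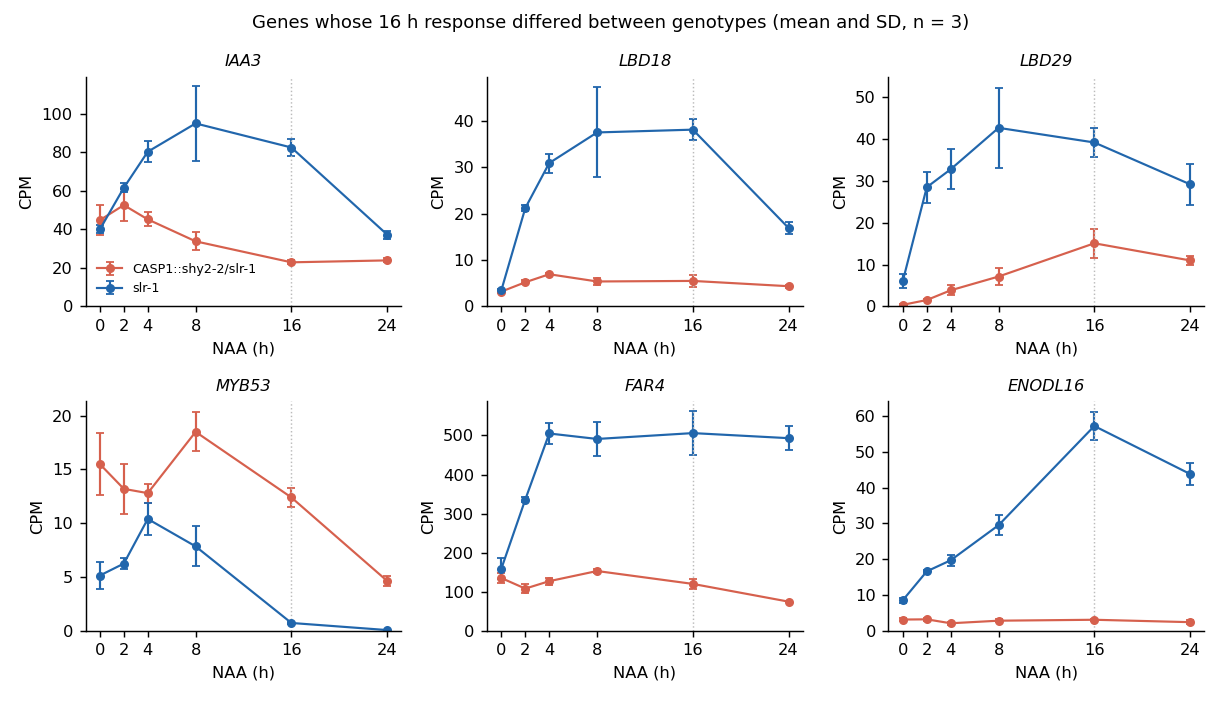
Mean normalised read counts (CPM, y axis) with SD over 3 libraries against hours of NAA (x axis, 0 being the untreated controls) for 6 genes in CASP1::shy2-2/slr-1 (red) and slr-1 (blue), with a dotted line at 16 h. In slr-1 LBD18, FAR4 and ENODL16 reach 38.1, 506 and 57.2 CPM at 16 h, against 5.5, 120 and 3.08 CPM in CASP1::shy2-2/slr-1. MYB53 is at 12.4 CPM in CASP1::shy2-2/slr-1 and 0.728 CPM in slr-1 at 16 h.

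Among the suberin MYB factors, MYB53 had the smallest p of the genotype difference. It stood at 13.4, 18.8 and 14.4 CPM in the controls and at 11.8, 12 and 13.5 CPM at 16 h (-0.32 ± 0.17, adjusted p = 0.152). In slr-1 it went from 4.69, 4.2 and 6.53 CPM to 0.607, 0.718 and 0.86 CPM, a difference of 2.50 ± 0.27 in response (adjusted p = 5e-07). MYB92 and MYB9 differed in the same direction, by 1.08 ± 0.20 and 1.14 ± 0.35 (adjusted p = 0.000937 and 0.0419). MYB67 did the opposite: it stood at 11.6, 10.2 and 11.4 CPM and at 11.4, 9.12 and 13.3 CPM here, and rose in slr-1 by 1.88 ± 0.16 (difference -1.85 ± 0.23, adjusted p = 4.73e-06). Of the 8 members 4 (50%) were more positive here and 1 (12.5%) more negative, against 4.52% and 4.92% of all genes. In slr-1 1 of these 8 genes rose and 5 fell, where 22.4% of all genes rose and 22.5% fell. MYB53 and MYB92 each overlap an annotated gene on their own strand.

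Suberin enzymes differed in both directions. FAR4 rose in slr-1 from 141, 147 and 189 CPM to 460, 489 and 569 CPM, so that its difference was -1.84 ± 0.15 (adjusted p = 3.42e-09), and FAR1, which fell here, rose there by 0.77 ± 0.18 (difference -2.03 ± 0.25, adjusted p = 5e-06). CYP86A1 was the reverse, with a difference of 1.2 and adjusted p = 0.033. Of 12 monomer genes 3 (25%) were more positive and 3 (25%) more negative, and of 5 exporters 3 (60%) were more negative. Over all genes tested 4.52% were more positive and 4.92% more negative.

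Among the other genes with the smallest p of the genotype difference, AT1G14160 belongs to the UPF0497 family, which also holds the CASP proteins. It stood at 23.7, 32.7 and 25.1 CPM in the controls and at 19, 16 and 23.2 CPM at 16 h, and in slr-1 it went from 35.2, 31.9 and 31.2 CPM to 3.08, 2.82 and 5.8 CPM (difference 2.58 ± 0.25, adjusted p = 5.66e-08). AT1G78990, an acyltransferase of the HXXXD family, stood at 43.3, 55.1 and 50.3 CPM and at 73.9, 80.5 and 90.5 CPM here, and at 28.2, 30.3 and 32.9 CPM and 2.91, 2.66 and 6.17 CPM in slr-1 (difference 3.68 ± 0.37, adjusted p = 1.13e-07). ENODL16, an early nodulin-like protein, stood at 3.5, 3.33 and 2.59 CPM in the controls and at 3.13, 2.82 and 3.3 CPM at 16 h here, and went in slr-1 from 8.11, 8.16 and 9.37 CPM to 55.1, 54.8 and 61.6 CPM (difference -2.77 ± 0.19, adjusted p = 1.35e-10). AT2G36670, an aspartyl protease, stood at 20.6, 19.6 and 22.3 CPM and at 20.9, 21.6 and 24.7 CPM here, and rose in slr-1 from 26.2, 30.9 and 33.7 CPM to 133, 138 and 157 CPM (difference -2.13 ± 0.14, adjusted p = 7.17e-11). JAR1, which conjugates jasmonate to isoleucine, likewise stood at 170, 176 and 175 CPM at 16 h here, within the range of its controls (196 and 175 CPM in replicates 2 and 3, with replicate 1 lowest), and reached 382, 381 and 433 CPM in slr-1 from 156, 157 and 183 CPM (difference -1.3 ± 0.13, adjusted p = 5.66e-08). These last 3 genes thus stood near their control level in CASP1::shy2-2/slr-1 and rose in slr-1. AT5G04120, a phosphoglycerate mutase family protein, was named among the 15 largest falls, not by the genotype difference, and the genotypes differed in its untreated level. It stood at 156, 130 and 160 CPM in its controls and at 1.5 to 2.41 CPM in those of slr-1, and fell at 16 h to 5.57, 2.65 and 3.53 CPM (-5.25 ± 0.47, adjusted p = 3.81e-09).

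Xylem and secondary wall genes fell. Of 10 xylem markers 9 fell and 1 rose with or without replicate 3, with a median of -1.87. Over all genes tested 13.9% fell and 15.8% rose. IRX5, IRX1 and IRX3, the cellulose synthases of secondary walls, fell by 2.76 ± 0.16, 2.75 ± 0.17 and 2.73 ± 0.21 (adjusted p at most 1.91e-10). IRX5 went from 113, 130 and 152 CPM to 19.4, 22.5 and 16.4 CPM, with no overlap. XCP1, a protease of dying xylem vessels, went from 215, 204 and 269 CPM to 64.2, 69.7 and 94 CPM (-1.59 ± 0.14, adjusted p = 1.57e-09). LAC17, a laccase that polymerises lignin, went from 104, 92 and 125 CPM to 21, 19.3 and 19.9 CPM (-2.41 ± 0.13, adjusted p = 1.33e-13). GAUT12, a glycosyltransferase needed for wall xylan, went from 29.4, 32.6 and 34.3 CPM to 6.55, 5.8 and 5.18 CPM (-2.46 ± 0.12, adjusted p = 7.32e-14). In these genes all treated libraries were far below the controls, and in XCP1 replicate 3 was the highest of them. In the phenylpropanoid and lignin list 11 of 19 tested members fell and 0 rose (10 and 0 without replicate 3, and 7 falls without control replicate 2 or 16 h replicate 2). PAL4, of the first step of that pathway, stood at 114, 116 and 131 CPM and at 40.1, 51.7 and 77.5 CPM (-1.09 ± 0.17, adjusted p = 1.81e-05). LAC2, another laccase, fell by 3.71 ± 0.25, from 20.9, 26 and 27.4 CPM to 1.57, 1.42 and 2.76 CPM (adjusted p = 1.36e-11). Of the 10 xylem markers 3 (IRX1, IRX3 and IRX5) had a more negative response than in slr-1 and 1, ACL5, a more positive one (1.15 ± 0.34, adjusted p = 0.0309). These were 30% and 10% of the list, against 4.92% and 4.52% of all genes. The fall was also larger than in slr-1 for LAC17 (difference -0.88, adjusted p = 0.00132) and for IRX15, a xylan gene (-1.27 ± 0.18, adjusted p = 4.21e-05), and XCP1 gave no such call (-0.44, adjusted p = 0.14).

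The timing of this fall was read from the libraries at 8 and 24 h. Between 8 and 16 h 840 genes (4.01%) rose and 1535 (7.33%) fell. Without 16 h replicate 3 these were 2283 and 2452, without replicate 1 297 and 709, and without replicate 2 388 and 795. They were 441 and 934 without 8 h replicate 1, and 467 rose without 8 h replicate 2. The 5 smallest p among the falls belonged to LAC17, GAUT12, CTL2, PGSIP1 and IRX15, all genes of secondary wall formation. LAC17 was at 84.5, 91.3 and 72.2 CPM at 8 h, at 21, 19.3 and 19.9 CPM at 16 h and at 7.74, 6.54 and 10.2 CPM at 24 h (-2.04 ± 0.13 and then -1.3 ± 0.13, adjusted p = 3.27e-11 and 4.63e-07). XCP1 was at 208, 215 and 201 CPM at 8 h, near its control level, and at 26, 25 and 28.9 CPM at 24 h (-1.45 ± 0.14 and then -1.51 ± 0.14). IRX1 and IRX5 were lower by 8 h already, at 41.6 ± 8.32 and 65.4 ± 9.75 CPM (SD, n = 3), fell further to 16 h and gave no call between 16 and 24 h (adjusted p = 0.646 and 0.122). Of the 10 xylem markers 8 fell from 8 to 16 h and 4 from 16 to 24 h. In these steps 7.33% and 5.5% of all genes fell. LBD29 rose between 8 and 16 h by 1.08 ± 0.24 (adjusted p = 0.00371), whereas LBD18 changed by 0.03 ± 0.14 (adjusted p = 0.93).

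**Figure D5:**
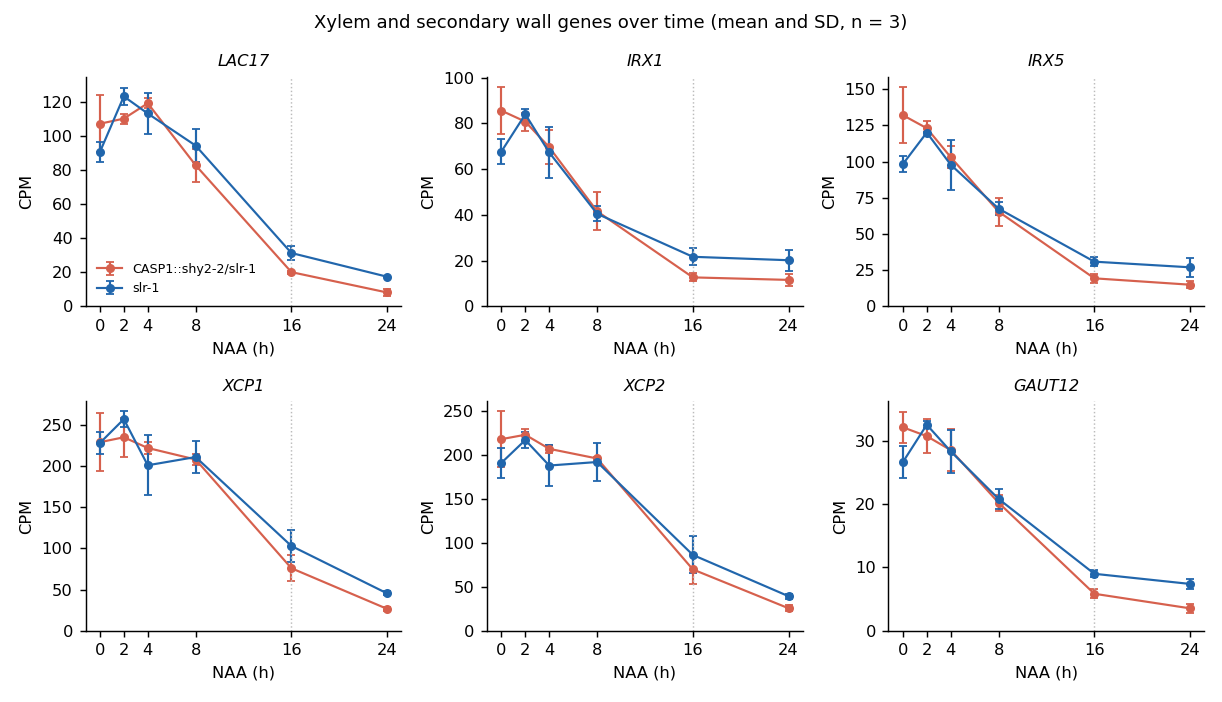
Mean normalised read counts (CPM, y axis) with SD over 3 libraries against hours of NAA (x axis) for 6 xylem and secondary wall genes in CASP1::shy2-2/slr-1 (red) and slr-1 (blue), with a dotted line at 16 h. LAC17, XCP1, XCP2 and GAUT12 drop between 8 and 16 h, LAC17 from 82.7 to 20.1 CPM in CASP1::shy2-2/slr-1.

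Where mean log2 CPM was 1 or more, the 2 smallest p of the rises from 8 to 16 h were those of FER1 and NRAMP3. FER1, the iron-storage protein ferritin, stood at 22.4, 20.8 and 11.4 CPM at 8 h and at 285, 295 and 208 CPM at 16 h (3.85 ± 0.26, adjusted p = 1.22e-10), above its controls at 70.4, 116 and 72.1 CPM. NRAMP3, which exports metals from the vacuole, went from 21.4, 21.5 and 24 CPM to 86.8, 114 and 116 CPM (2.24 ± 0.18, adjusted p = 4.55e-09). The next were HL, TTL4 and AT1G21440, annotated as a HAL2-like protein, a thioredoxin-like protein and a phosphoenolpyruvate carboxylase family protein. Of the 16 iron uptake genes 2 rose and 6 fell in this step, where 4.01% of all genes rose and 7.33% fell. FER1 and NRAMP3 were lower again at 24 h, FER1 at 149, 141 and 146 CPM and NRAMP3 at 48.6, 45.5 and 49.3 CPM. From 16 to 24 h 646 genes (3.09%) rose and 1151 (5.5%) fell. These were 379 and 808 without 16 h replicate 3, and leaving out a 24 h library gave 312 to 369 rises and 550 to 693 falls. CCD8, of strigolactone synthesis, went from 8.89, 8.38 and 8.36 CPM to 18.3, 21.4 and 20.2 CPM (1.22 ± 0.16, adjusted p = 1.77e-05). AT5G40510, a sucrase/ferredoxin-like protein, dropped from 26.7, 31 and 51.6 CPM at 8 h to 11.9, 9.8 and 11.9 CPM at 16 h and stood at 60.1, 58.5 and 57.4 CPM at 24 h, so that 16 h was the lowest of these 3 times.

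Genes of other hormones were called in both directions, while over all genes 15.8% rose and 13.9% fell. In ethylene synthesis 6 of 12 tested members rose and 3 fell, with or without replicate 3. ACS6, which makes the ethylene precursor ACC, went from 10.6, 17 and 10.4 CPM to 77.2, 94.4 and 53 CPM (2.56 ± 0.28, adjusted p = 1.33e-07). ACS11, of the same family, went from 0.617, 0.204 and 0.305 CPM to 8.99, 8.6 and 5.89 CPM (4.40 ± 0.49, adjusted p = 1.69e-07). ACS9 had no read in the controls and 1.25, 0.645 and 0.569 CPM at 16 h. Of 12 genes of ethylene perception and response 5 rose and 1 fell (5 and 2 without replicate 3), among them EBF2, an F-box gene that limits the response (1.01 ± 0.11), and the receptors ERS1 (0.73 ± 0.08) and ETR2 (1.37 ± 0.15), with adjusted p at most 1.53e-07.

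Of 28 tested cytokinin genes 12 fell and 6 rose (12 and 7 without replicate 3). ARR5, a type-A response regulator that cytokinin induces, fell from 83.1, 79.7 and 83.9 CPM to 28, 22 and 31.3 CPM (-1.60 ± 0.21, adjusted p = 2.85e-06), and ARR16, of the same type, from 5.5, 5.21 and 5.85 CPM to 1.08, 0.689 and 1.17 CPM (-2.50 ± 0.26, adjusted p = 5.01e-08). CKX1, which degrades cytokinin, rose from 4.34, 2.96 and 3.31 CPM to 17.5, 18.7 and 19.7 CPM (2.4 ± 0.19, adjusted p = 2.77e-10). CKX5, of the same family, fell from 31.6, 25.9 and 30.9 CPM to 15.5, 15.7 and 14.1 CPM and rose in slr-1 by 1.16 ± 0.14 (difference -2.13 ± 0.20, adjusted p = 2.74e-08). The 2 oxidases thus moved in opposite directions here. Among 10 gibberellin genes 3 rose (30%) and 2 fell (20%), against 15.8% and 13.9% of all genes, and 4 and 2 without replicate 3. GA2OX2, which inactivates gibberellin, fell from 29.2, 29.2 and 38 CPM to 5.76, 5.8 and 5 CPM (-2.54 ± 0.23, adjusted p = 3.66e-09). In the abscisic acid list 1 of 14 tested members rose (7.14%) and 3 fell (21.4%). In the jasmonate list 1 of 19 rose (5.26%) and 2 fell (10.5%), both below the shares of all genes. Without replicate 3, 1 and 2 members of these lists rose and 4 and 4 fell. In the abscisic acid list 0 rose and 1 fell without 16 h replicate 1, 16 h replicate 2 or control replicate 3.

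Transport genes gave the remaining large groups, while over all genes tested 15.8% rose and 13.9% fell. Of 13 tested SWEET sugar transporters 8 fell and 1 rose (9 and 1 without replicate 3), with a median of -2.47. SWEET11, which exports sucrose from phloem parenchyma in leaves, went from 11.5, 9.87 and 18.3 CPM to 0.626, 0.111 and 0.512 CPM (-5.01 ± 0.67, adjusted p = 3.21e-06). Of 19 aquaporins 10 fell and 0 rose (13 and 2 without replicate 3, and 7 to 13 falls with any 1 library left out). TIP1;2, a water channel of the vacuole, stood at 686, 606 and 652 CPM in the controls and at 279, 187 and 297 CPM at 16 h (-1.35 ± 0.13, adjusted p = 1.22e-08). TIP2;3, another, went from 73.6, 83.9 and 82.6 CPM to 6.72, 4.34 and 15.2 CPM (-3.21 ± 0.43, adjusted p = 3.14e-06). Of 16 iron uptake genes 9 rose and 0 fell (10 and 0 without replicate 3, and 6 to 13 rises with any 1 library left out), with a median of 1.3. BHLH39, a regulator of iron deficiency, stood at 26.7, 81.4 and 24 CPM in the controls, replicate 2 standing high, and at 113, 130 and 152 CPM at 16 h (1.58 ± 0.30, adjusted p = 0.000244). NAS2, which makes the metal chelator nicotianamine, went from 283, 204 and 309 CPM to 809, 1030 and 651 CPM (1.65 ± 0.31, adjusted p = 0.000249).

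Over all genes tested 15.8% rose and 13.9% fell, and the shares of expansins, which loosen walls, were near these. Of 20 tested expansins 3 rose (15%) and 4 fell (20%; 4 and 3 without replicate 3), and of 26 xyloglucan enzymes 3 rose (11.5%) and 8 fell (30.8%; 4 and 6 without replicate 3, and 1 rose without control replicate 2). EXPA9 rose from 21.1, 14.5 and 14.6 CPM to 48.2, 34.4 and 47.5 CPM (1.37 ± 0.23, adjusted p = 6.58e-05) and XTH32 fell from 39.2, 44 and 39.2 CPM to 28.4, 26.3 and 19.4 CPM (-0.72 ± 0.11, adjusted p = 2.68e-05). Of 29 cell cycle genes 1 rose and 9 fell, all by less than 1 on the log2 scale. Without replicate 3 these were 4 and 6, and falls numbered 2, 2 and 1 without control replicate 1, control replicate 3 or 16 h replicate 2. CYCB2;3, a mitotic cyclin, stood at 24.6, 26.5 and 27.1 CPM in the controls and at 13.8, 13.1 and 17.8 CPM at 16 h (-0.80 ± 0.20, adjusted p = 0.00385).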

How the data were processed

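The deposited files hold raw counts of reads for each gene, as the authors deposited them for every library. The submitters' processing notes list HTSeq 0.6.1, STAR 2.4.0a and cutadapt 1.3, and TAIR10 as build, without settings. The kit was stranded, per the labels' protocols, but the use of strand in counting is not given in the sources used here. The 5 summary rows per file (5.6 to 7.7% of the reads in the 6 libraries) were left out. Of 32678 genes 6182 had no read, and 31912 had an entry in the TAIR10.1 reference, which gave names, products and promoters.

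Counts of all 36 libraries were fitted with edgeR 4.0.16 in R 4.3.3 with 1 mean for each of the 12 groups, TMM factors (0.939 to 1.066) and filterByExpr (20939 genes kept, 11739 left out). The quasi-likelihood F-test (24 residual degrees of freedom, common dispersion with a square root of 0.149) compared 16 h with control, the genotypes' 16 h responses, 8 with 16 h, 16 with 24 h, and the untreated genotypes. Calls are Benjamini-Hochberg adjusted p under 0.05 over all genes tested, and every adjusted p of a gene is from this test. Comparisons within the genotype share their 16 h libraries, so their calls are not independent. Principal components used log2 CPM with a prior count of 2. The 6 libraries held 34.5 to 48.5 M reads, and replicates of a group differed by 8.49 to 114 times the chi-square that counting error alone gives (per degree of freedom).

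The lists (37 from textbook knowledge, and the GDSL family as annotated) and the rules were chosen with earlier results of these data known. The rule names IAA3, IAA14 and CASP1, the 15 largest rises and falls (mean log2 CPM of at least 1, groups not overlapping), the 10 smallest p of the genotype difference and 5 of each step in each direction, and in each list up to 5 members by p at 16 h and 2 by p of the genotype difference. The text leaves out some of these. Lists were described by counts and medians. For loci without a name in the reference the locus is printed.

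Replicate numbers were not taken as pairs, since same-numbered libraries of control and 16 h correlated in their deviations at 0.04, 0.13 and -0.02. On simulated counts (20939 genes), the 16 h comparison recovered 40.9, 74.2 and 93.9% of genes changed 1.5-, 2- and 4-fold with 4 false calls, and the genotype difference 22.7, 63.6 and 87.9% with 4. The step from 8 to 16 h recovered 48.5, 71.2 and 92.4% (7 false) and that from 16 to 24 h 50, 77.3 and 92.4% (8). Only 67, 67 and 66 genes were changed at these folds, in the CASP1::shy2-2/slr-1 16 h group alone. All other libraries shared 1 mean per gene, and no library was set apart as 16 h replicate 3 was. Far more genes were called in the real data, so these rates need not hold there. Alternatives were RLE size factors, total count scaling, DESeq2 1.42.0, dropping the filter or raising it to a mean of 5 CPM, replicate number as a block, a term for suffix n of the library codes (the library with suffix x left out), only the groups compared, stricter thresholds (0.01, or 2-fold), and each library left out. Where 1 library was left out of a group of 3, the pooled spread was assumed to hold for the remaining ones. List counts under settings other than total count scaling and without 16 h replicate 3 were added after seeing the data.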

Additional observations from a re-analysis of the deposited data

Results flagged for a closer look

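The difference between the 16 h responses of CASP1::shy2-2/slr-1 and slr-1 passed edgeR's test for 946 genes with a more positive and 1030 with a more negative response in CASP1::shy2-2/slr-1. Each of the genes below was picked out because this difference itself was tested and called, and all values are differences of log2 fold changes (CASP1::shy2-2/slr-1 minus slr-1), adjusted p at most 1.38e-06. More positive were the RING-type gene AT2G47560 (2.69), which rose from 8.44 to 9.58 CPM in the controls to 57.8 to 70.7 CPM at 16 h, AT1G14160 (2.58), AT1G78990 (3.68), cPT5, of the undecaprenyl pyrophosphate synthetase family (3.5), the acid phosphatase gene AT1G04040 (1.44), AT1G60010 (2.37), MYB53 (2.50), the patatin-like gene PLP8 (1.83), the alpha/beta-hydrolase AT2G47630 (0.99) and the annexin gene ANNAT7 (3.74).

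More negative were AT2G36670 (-2.13), AT1G19200 (-3.15), ENODL16 (-2.77), the VQ-motif gene AT5G08480 (-3.77), LBD18 (-2.67), the acyltransferase AT1G24430 (-1.99), the strictosidine synthase-like gene SSL2 (-3.54), the transporter AT3G45680 (-2.76), FAR4 (-1.84) and the desiccation-like gene AT3G62730 (-5.56). AT3G62730 was at 3.48, 1.49 and 3 CPM in untreated CASP1::shy2-2/slr-1 and at 0.361, 0.267 and 0.313 CPM at 16 h, while in slr-1 it went from 10.9, 11.6 and 10.9 CPM to 57.6, 66.2 and 65.1 CPM. AT3G45680 fell from 195, 126 and 208 CPM to 48.5, 45.2 and 51 CPM and rose in slr-1 from 44.1, 43 and 61.8 CPM to 88.2, 89.1 and 97.9 CPM. AT1G24430 fell from 49.3, 39.5 and 53.5 CPM to 21.3, 19.4 and 24.3 CPM and rose in slr-1 from 53.4, 52.7 and 59 CPM to 93.9, 102 and 103 CPM.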

How the results depend on the processing

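No called result changed sign. Of 317 results for named genes 233 kept their side of the threshold under every alternative run, 63 were lost and 21 gained under at least one. Of the 233, 221 also kept their sign, and 12, called under 0 settings, had estimates of both signs. The 16 h counts (3308 rises, 2917 falls) were 1072 and 1322 with only the groups compared, 1802 and 1767 at an adjusted p under 0.01, 689 and 1022 with at least 2-fold, and 2132 to 4003 and 1939 to 3866 with each library left out. The counts of the genotype difference (946 and 1030) were 325 and 465 with only the groups compared, 300 and 421 at 0.01, 351 and 496 with 2-fold, 588 and 661 without replicate 3 of both 16 h groups, and 490 to 1669 and 544 to 1252 with each library left out (547 more positive without slr-1 16 h replicate 2 and 558 without CASP1::shy2-2/slr-1 control replicate 3). With suffix n as a term 1866 were more positive. From 8 to 16 h (840 and 1535) they were 50 and 176 with only the groups compared, 253 and 702 at 0.01, 226 and 433 with 2-fold, and 297 to 2283 and 709 to 2452 with each library left out, and 1680 rose with total count scaling. From 16 to 24 h (646 and 1151) they were 393 and 719 with only the groups compared, 238 and 510 at 0.01, 187 and 503 with 2-fold, and 312 to 522 and 550 to 1180 with each library left out, and 374 rose at a mean CPM of at least 5. Fits with only the groups compared have fewer samples and take the spread from those libraries alone. Stricter thresholds pass fewer genes by construction. For all settings other than the thresholds, the cause of a change in counts was not tested. Rises made up 53.1% of the 16 h calls, 58% with total count scaling and 44.8% with only the groups compared. No scaling moved the median of all genes by more than 0.03 at 16 h or 0.05 for the genotype difference.

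With the replicate block, the counts were 3248 and 2945 at 16 h, 946 and 1024 for the genotype difference, 812 and 1549 from 8 to 16 h, and 609 and 1117 from 16 to 24 h. The 16 h libraries of both genotypes correlated by number at 0.52, 0.23 and 0.66, but their controls at 0.07, -0.03 and 0.14. The numbers were therefore not read as pairs.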

Other observations

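MRN1, which makes the triterpene marneral, stood at 48.6, 10.8 and 64.3 CPM in the controls, with replicate 2 low, and at 0.12, 0.289 and 0.739 CPM at 16 h (-6.80 ± 0.80, adjusted p = 4.25e-07). VSP2, a storage protein induced by jasmonate, fell from 43.5, 13.2 and 28.4 CPM to 2.58, 1.85 and 2.53 CPM (-3.62 ± 0.58, adjusted p = 3.91e-05). PAD3, of camalexin synthesis, rose from 29.2, 28.5 and 29.3 CPM to 74.9, 82.8 and 45.5 CPM (1.22 ± 0.23, adjusted p = 0.000246), and in the indolic defence list 1 of 8 members rose and 1 fell with or without replicate 3. Of 39 tested glutathione transferases 6 rose and 6 fell, 15.4% each way and close to the shares of all genes (15.8% and 13.9%; 7 and 6 without replicate 3, and 3 rose without control replicate 1 or 3). GSTU4 went from 3.28, 4.64 and 3.33 CPM to 11.2, 13.7 and 10.5 CPM (1.65 ± 0.25, adjusted p = 1.89e-05). The nitrate transporter gene NRT1.8, the 1 call among 8 tested nitrate genes, rose from 1.83, 1.31 and 0.89 CPM to 6.07, 8.03 and 3.18 CPM (2.11 ± 0.40, adjusted p = 0.000254). Of 12 circadian clock genes 3 fell (25%, against 13.9% of all genes) and 0 rose. Without replicate 3 these were 4 and 0, and 1 fell without 16 h replicate 1 or 2.

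Of 8 phloem markers 6 fell and 1 rose with or without replicate 3 (4 and 0 without control replicate 3), with a median of -0.47 against -0.00 for all genes. Over all genes tested 13.9% fell and 15.8% rose. OPS, a protein of protophloem differentiation, went from 67, 46.4 and 63.8 CPM to 39.7, 47.1 and 31.3 CPM, with overlapping groups (-0.58 ± 0.13, adjusted p = 0.00147). PHO1, which loads phosphate into the xylem, rose from 483, 575 and 543 CPM to 742, 858 and 908 CPM (0.65 ± 0.12, adjusted p = 0.000266). Among 10 root hair markers 5 fell (3 without replicate 3, and 2 without control replicate 1 or 3). EXPA18, an expansin of root hairs, stood at 0.839, 0.633 and 0.992 CPM in the controls and at 0.0964, 0.0222 and 0.0284 CPM at 16 h (-3.97 ± 0.79, adjusted p = 0.000451). The adjusted p-values are from edgeR's test over all genes.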
